A study of Mus musculus with 8 samples.

Results

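The 10 genes described here carry or read out Notch signalling: the ligands Dll1, Dll3, Dll4 and Jag1, the receptors Notch1 and Notch2, the target repressors Hes1 and Hey1, the related factor Hes6, and Rest, a repressor of neuronal genes. They were taken by symbol, 10 of the 22056 genes in the deposited tables, and all 10 are protein-coding genes with the same identifier in the files and in GENCODE M21 (GRCm38). Each was followed in tumour cells of 8 allografts of N2N1G, 1 mouse small cell lung cancer line, and in the host cells that came with them. Per the labels, the same number of cultured cells was given for each allograft and tumours were taken after 3 weeks: 2 from brain (injected directly), 3 from liver and 3 from subcutaneous tissue. Strain, age and genotype of the hosts are not given in the sources used here. All 8 libraries share the line and were read without a treatment, so groups differ by site, and for liver also by the route of the cells (tail vein), which cannot be told apart from the site. Living cells had been sorted from dissociated tumours, and droplet 3' RNA libraries were counted as unique molecular identifiers (UMIs).

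Tumour cells were those with at least 0.2% of their UMIs from eGFP (the reporter) and Mycl, and host cells those under 0.1%. Of 38460 deposited cells, 36797 passed the cell filters, 34719 were tumour cells, 1648 were host cells and 430 lay between the gates. Libraries held 2418 to 6276 tumour cells with 21689091 to 62047017 UMIs, and 22 to 886 host cells. An eGFP UMI was present in 99.4 to 99.8% of tumour cells and in 13.4 to 68.2% of host cells. Of 37556 barcodes, 882 occurred in more than 1 library. Brain replicate 1 stood apart in host content: 26.2% of its kept cells were host cells, against 0.454 to 7.26% in the others, and 11 macrophage markers summed to 478 CPM (UMIs of a gene per 1000000 UMIs of the same cells) in its tumour cells, against 2.16 to 70.8 CPM elsewhere.

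Notch receptors are cut after a ligand on a neighbouring cell pulls on them. The freed intracellular part enters the nucleus, joins the DNA-binding factor Rbpj and switches on repressors of the Hes and Hey families, which hold down proneural factors. Proneural factors in turn switch on Dll1 and Dll3, so that neighbouring cells take different fates. In small cell lung cancer most cells are neuroendocrine, with high delta ligands, and Notch-active cells are known as a less neuroendocrine minority in which Hes1 and Rest rise.

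Promoter sequence is given for Dll1, Dll4 and Hes6, because Dll1 and Dll4 were the members that passed the test as lower in liver against both other sites and Hes6 was found in a larger share of tumour cells than any other member. RefSeq promoter entries (GRCm38.p6) were found for 7 of the 10 members. Shown 5' to 3' on the gene's strand are the 250 bases before the RefSeq start, with each E-box (CANNTG, the site class bound by proneural and other basic helix-loop-helix factors) in capitals:
Dll1, chr17:15376933-15377182, minus strand: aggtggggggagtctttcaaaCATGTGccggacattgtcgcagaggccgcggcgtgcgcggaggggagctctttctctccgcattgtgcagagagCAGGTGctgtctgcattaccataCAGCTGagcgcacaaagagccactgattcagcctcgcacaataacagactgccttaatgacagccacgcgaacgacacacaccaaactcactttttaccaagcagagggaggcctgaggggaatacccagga
Dll4, chr2:119325534-119325783, plus strand: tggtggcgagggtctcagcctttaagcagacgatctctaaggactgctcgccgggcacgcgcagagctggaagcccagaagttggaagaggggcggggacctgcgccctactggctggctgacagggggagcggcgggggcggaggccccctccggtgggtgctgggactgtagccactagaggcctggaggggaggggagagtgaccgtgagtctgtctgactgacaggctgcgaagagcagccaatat
Hes6, chr1:91414039-91414288, minus strand: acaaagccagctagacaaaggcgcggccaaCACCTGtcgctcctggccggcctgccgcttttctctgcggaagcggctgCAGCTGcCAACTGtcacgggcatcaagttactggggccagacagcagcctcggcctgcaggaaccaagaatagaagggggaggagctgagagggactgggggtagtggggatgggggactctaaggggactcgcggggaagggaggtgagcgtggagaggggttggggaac
The Dll1 window held 3 E-boxes, at bases 229, 155 and 132 before the start. The Hes6 window also held 3, at bases 220, 171 and 164, and no E-box was found in the Dll4 window. Of 32851 windows of the same length, 66.2% held at least 1 E-box and 12.2% held at least 3. The N-box (CACNAG, a site class of Hes repressors, read on both strands) was found once, as CACTAG 75 bases before the Dll4 start, and occurred in 36.7% of all windows. The Rbpj core TGGGAA, read on both strands, was in none of these 3 windows and in 21.6% of all. The Dll1 start in RefSeq lay 60 bases from the GENCODE start, and the others matched. An exon of the antisense gene A930024N18Rik overlaps the Dll1 window. A match describes letters and says nothing about binding.

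In tumour cells, the delta ligands were lower in liver than at one or both other sites, and Notch2 was higher in brain. Dll1 and Dll4 fell in liver against both brain and subcutaneous tumours. Dll3 was higher in brain than in liver, by 2.27-fold, and than in subcutaneous tumours, by 1.65-fold. Hes1, Notch1, Jag1, Rest and Hes6 passed the test between no pair of sites. Tests are edgeR's quasi-likelihood test on UMIs summed per library, with Benjamini-Hochberg adjustment over 13931 genes and a threshold of 0.05; all 10 members were tested. In brain against liver 4 passed, all higher in brain, where 21.8% of all genes passed (13.2% higher, 8.56% lower). In brain against subcutaneous 3 passed, 2 higher and 1 lower, against 15.1% of all genes (8.94% higher, 6.13% lower). In liver against subcutaneous 2 passed, both lower in liver, against 2.83% of all genes (0.933% higher, 1.90% lower). Over the 10 members the median log2 fold change was 0.41, -0.02 and -0.52 in the same order. The 3 comparisons share their libraries in pairs and are not independent. The libraries of the 2 sites did not overlap for 4 members in each comparison, against 53.2%, 46.8% and 27.7% of all genes in the same order.

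**Figure D1:**
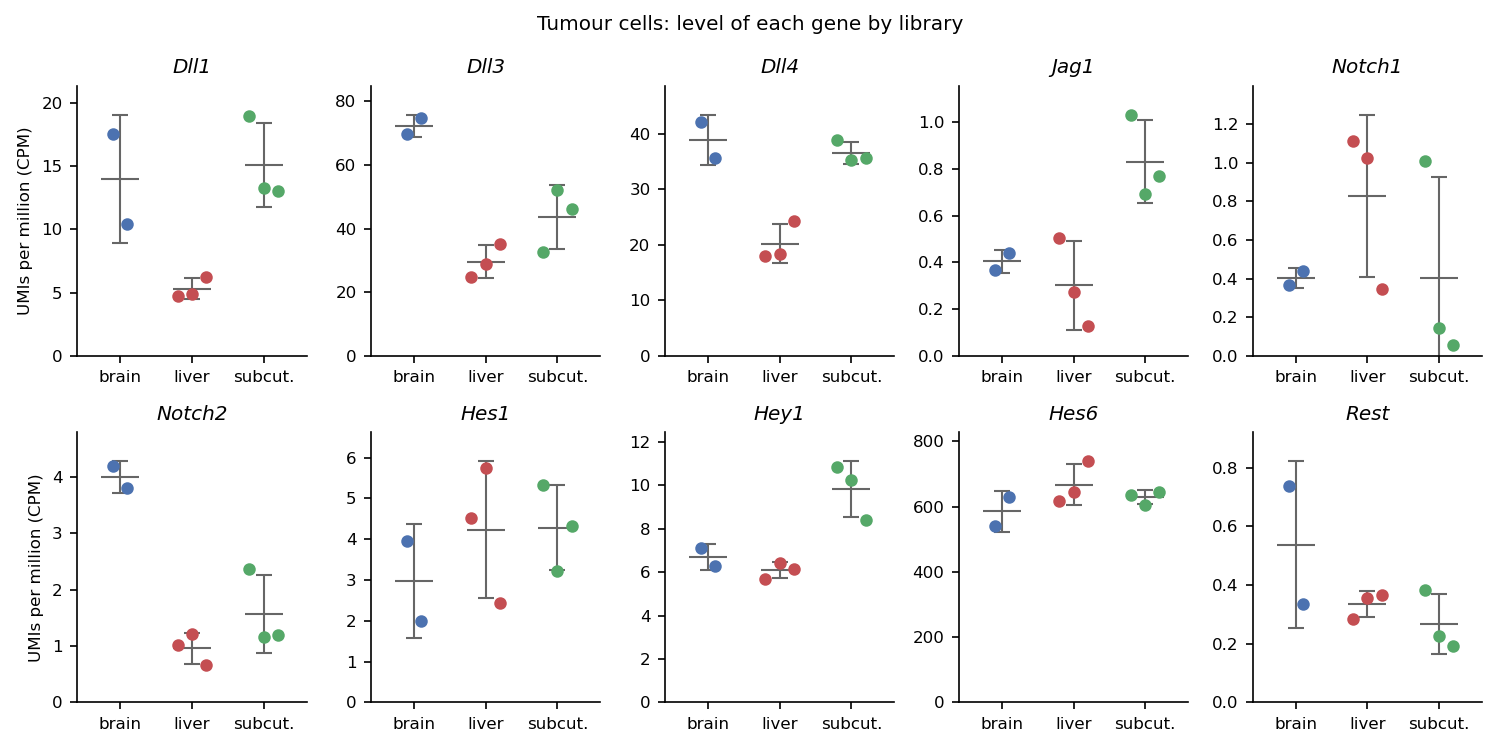
CPM of each gene in the tumour cells of each library, by site; points are libraries, and bars give the mean ± SD (n = 2 brain, 3 liver, 3 subcutaneous; the lower Notch1 bar is cut at 0). Dll1 and Dll4 of the 3 liver libraries lie below those of all 5 others, and Notch2 of the 2 brain libraries lies above those of all 6 others.

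Dll1, a ligand that activates receptors on neighbouring cells (chromosome 17, 15367354 to 15376872, minus strand), was at 17.6 and 10.4 CPM in brain, at 4.76, 4.89 and 6.26 CPM in liver and at 19.0, 13.3 and 13.0 CPM in subcutaneous tumours. The liver libraries lay below the other 5, and brain and subcutaneous libraries overlapped. The mean was 14.0 ± 5.06 (SD, n = 2) in brain, 5.30 ± 0.831 (n = 3) in liver and 15.1 ± 3.36 (n = 3) under the skin. Dll1 was higher in brain than in liver by 1.28 on the log2 scale (SE 0.24, edgeR adjusted p = 0.0079). In liver it fell by 1.40 against subcutaneous tumours (SE 0.22, edgeR adjusted p = 0.0201). Brain and subcutaneous tumours differed by less than the spread (log2 fold change -0.12, SE 0.24, edgeR adjusted p = 0.784). Without brain replicate 1 the brain against liver difference was 0.88 (edgeR adjusted p = 0.0656). Without liver replicate 1 or 2 the liver against subcutaneous call was lost, at edgeR adjusted p = 0.092 and 0.13.

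Dll4, another activating delta ligand, best known from blood vessels (chromosome 2, 119325784 to 119335962, plus strand), was also lowest in liver. It was at 42.1 and 35.7 CPM in brain, at 18.1, 18.4 and 24.2 CPM in liver and at 38.8, 35.2 and 35.6 CPM in subcutaneous tumours. Again every liver library lay below the other 5. Brain exceeded liver by 0.83 on the log2 scale (SE 0.13, edgeR adjusted p = 0.00408), and liver fell by 0.74 against subcutaneous tumours (SE 0.12, edgeR adjusted p = 0.0211). The brain against subcutaneous difference was 0.09 (SE 0.13, edgeR adjusted p = 0.709). The liver against subcutaneous call was lost without liver replicate 1 or 2 or subcutaneous replicate 2 or 3, at edgeR adjusted p of 0.0898, 0.133, 0.0686 and 0.0547. Endothelial cells also carry Dll4, and 9 endothelial markers summed to 43.2 and 26.2 CPM in brain tumour cells, 11.6, 9.87 and 11.3 CPM in liver and 29.0, 15.6 and 14.4 CPM under the skin, with UMIs for 6 to 9 of them per library. In tumour cells without host marker UMIs, Dll4 in brain against liver was 0.84 (edgeR adjusted p = 0.00485) and in liver against subcutaneous -0.82 (edgeR adjusted p = 0.0142). Dll1 and Dll4 were thus the 2 of 10 members that fell in liver against both other sites, as did 0.890% of all genes. Dll3 and Notch2 were the 2 that were higher in brain than at both other sites, as were 7.35% of all genes, and no member was lower in brain than at both, as 3.45% were.

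Dll3, a ligand that stays inside the cell, acts against Notch within it and is a drug target in small cell lung cancer (chromosome 7, 28293553 to 28302238, minus strand), was highest in brain. It was at 69.7 and 74.7 CPM in brain, 24.7, 28.9 and 35.0 CPM in liver, and 32.7, 52.2 and 46.0 CPM in subcutaneous tumours. Both brain libraries lay above the other 6, while subcutaneous replicate 1 lay within the liver range. The means were 72.2 ± 3.54 (SD, n = 2), 29.5 ± 5.19 (n = 3) and 43.6 ± 9.98 (n = 3) for brain, liver and subcutaneous. Dll3 was higher in brain than in liver by 1.18 on the log2 scale (SE 0.19, edgeR adjusted p = 0.00437), a call kept in each of 21 alternatives. Against subcutaneous tumours the difference was 0.72 (SE 0.19, edgeR adjusted p = 0.0365), a call lost in 6 of 21 alternatives. Liver against subcutaneous gave -0.46 (SE 0.18, edgeR adjusted p = 0.211), and without subcutaneous replicate 1 it passed, at -0.63 (edgeR adjusted p = 0.022).

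Jag1, a ligand of the jagged class (chromosome 2, 137081456 to 137116644, minus strand), rested on 6 to 43 UMIs per library. It was at 0.369 and 0.439 CPM in brain, 0.506, 0.272 and 0.13 CPM in liver and 1.03, 0.693 and 0.771 CPM in subcutaneous tumours. The subcutaneous libraries lay above all others, but no comparison passed the test (liver against subcutaneous log2 fold change -1.32, SE 0.47, edgeR adjusted p = 0.181). The depth leaves differences of this size between sites undecided.

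Among receptors, Notch2 (chromosome 3, 98013527 to 98150361, plus strand) was at 4.2 and 3.8 CPM in brain, 1.01, 1.21 and 0.669 CPM in liver and 2.37, 1.16 and 1.2 CPM under the skin. Both brain libraries lay above the other 6. Brain exceeded liver by 1.93 on the log2 scale (SE 0.37, edgeR adjusted p = 0.00829) and subcutaneous tumours by 1.35 (SE 0.37, edgeR adjusted p = 0.039). Without brain replicate 1 these were 1.88 (edgeR adjusted p = 0.0504) and 1.3 (edgeR adjusted p = 0.161), and the brain against subcutaneous call was lost in 10 of 21 alternatives. Notch2 is also present in microglia and macrophages, whose markers were high in brain tumour cells. Macrophage markers (11 genes) summed to 478 and 70.8 CPM in brain tumour cells and 2.16 to 40.4 CPM elsewhere. Astrocyte markers (8 genes) summed to 88.9 and 68.6 CPM in brain tumour cells and 17.6 to 42.9 CPM elsewhere, and microglia markers (7 genes) to 128 and 59.9 CPM against 24.1 to 42.2 CPM. In brain replicates 1 and 2, macrophage markers in tumour cells stood at 1.92 and 0.359% of their host level. The same share of host Notch2 is 0.516 and 0.0877 CPM, beside the measured 4.2 and 3.8 CPM. The part of host RNA in the Notch2 difference was not tested. In tumour cells without any of 41 host marker UMIs (20822 cells, 321 of them in brain replicate 1), brain against liver was 2.07 (edgeR adjusted p = 0.00962), and brain against subcutaneous was 1.35 and no longer passed (edgeR adjusted p = 0.0669).

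Notch1 (chromosome 2, 26457903 to 26516663, minus strand), the other receptor, rested on 3 to 55 UMIs per library. It was at 0.369 and 0.439 CPM in brain, 1.11, 1.02 and 0.345 CPM in liver and 1.01, 0.145 and 0.0578 CPM in subcutaneous tumours, so libraries of 1 site spread more than the sites did. No comparison passed, and the edgeR adjusted p ran from 0.456 to 0.976. Without subcutaneous replicate 1 the liver against subcutaneous difference was 3.08 (edgeR adjusted p = 0.0194), so that 1 library decides this value.

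Hes1, the main direct target and repressor of proneural genes (chromosome 16, 30064384 to 30067796, plus strand), was at 3.97 and 1.99 CPM in brain, 4.52, 5.75 and 2.44 CPM in liver, and 5.32, 3.22 and 4.32 CPM in subcutaneous tumours. The 3 sites overlapped, and none of the 3 comparisons passed (edgeR adjusted p from 0.288 to 0.914). Macrophage markers in tumour cells stood at 1.92 and 0.359% of their host level in brain replicates 1 and 2, and microglia and astrocyte markers at the shares given for Notch2. The macrophage share alone of host Hes1 is 2.03 and 0.401 CPM beside the measured 3.97 and 1.99 CPM, and the part of host RNA was not tested. Hey1, a related target (chromosome 3, 8663359 to 8667256, minus strand), was at 7.1 and 6.28 CPM in brain, 5.69, 6.42 and 6.13 CPM in liver and 10.8, 10.2 and 8.4 CPM in subcutaneous tumours. Every subcutaneous library lay above the other 5. Hey1 in brain fell by 0.56 against subcutaneous tumours (SE 0.16, edgeR adjusted p = 0.0431), a call lost in 14 of 21 alternatives. Liver against subcutaneous was -0.58 (SE 0.14, edgeR adjusted p = 0.0603), and it passed with DESeq2 (-0.57, adjusted p = 0.0117) and with library sizes in place of TMM factors (-0.69, edgeR adjusted p = 0.0256).

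Hes6, which acts against Hes1 and is itself switched on by proneural factors rather than by Notch (chromosome 1, 91411483 to 91414038, minus strand), was at 542 and 629 CPM in brain, 618, 646 and 739 CPM in liver and 636, 606 and 646 CPM under the skin. Sites overlapped and none of the 3 comparisons passed, with -0.30 in brain against liver (SE 0.10, edgeR adjusted p = 0.0648). After each tumour cell was thinned to 3000 UMIs, 73.6 to 85.0% of tumour cells of a library had a Hes6 UMI, against 7.40 to 19.7% for Dll3, 5.08 to 11.6% for Dll4 and 1.25 to 5.60% for Dll1. At 1500 UMIs a Hes6 UMI was in 50.8, 57.4, 59.5 and 55.5% of tumour cells and in 6.0, 8.27, 14.5 and 5.08% of host cells of brain replicates 1 and 2, liver replicate 2 and subcutaneous replicate 1. Median depth before thinning was 7972 to 10540 UMIs in tumour cells and 3457 to 5018 UMIs in host cells. Rest (chromosome 5, 77265491 to 77286432, plus strand) rested on 10 to 17 UMIs per library, at 0.738 and 0.336 CPM in brain, 0.284, 0.355 and 0.367 CPM in liver and 0.384, 0.226 and 0.193 CPM in subcutaneous tumours. Its comparisons did not pass (edgeR adjusted p from 0.228 to 0.666). The same macrophage share of host Rest is 0.49 and 0.0984 CPM in brain replicates 1 and 2, beside the measured 0.738 and 0.336 CPM.

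**Figure D2:**
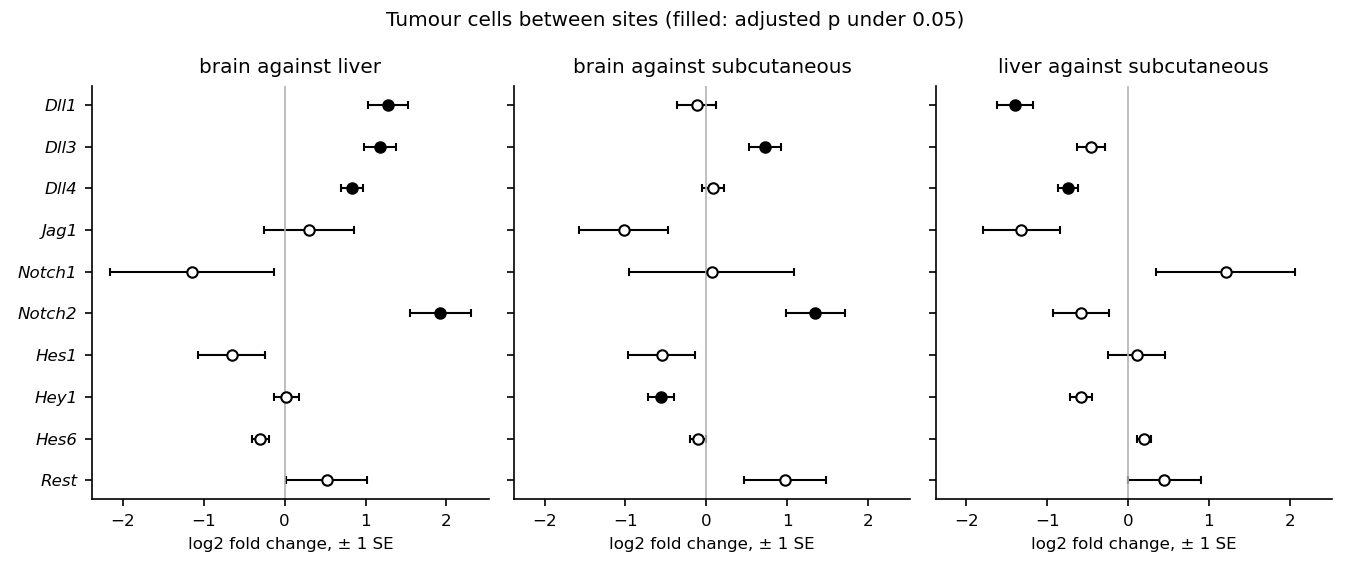
Log2 fold change of each gene in tumour cells between sites (x axis, points, with bars of 1 SE), from edgeR on 8 libraries; filled points have an adjusted p under 0.05. Dll1, Dll3, Dll4 and Notch2 are filled in brain against liver, Dll3, Notch2 and Hey1 in brain against subcutaneous, and Dll1 and Dll4 in liver against subcutaneous.

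The other genes of the pathway were read from a list of 105, of which 95 were tested. In brain against liver 9 rose and 6 fell, in brain against subcutaneous 6 rose and 8 fell, and in liver against subcutaneous 4 passed, all lower in liver; these shares are near or below the backgrounds above for the brain comparisons. Mfng, an enzyme that adds sugars to Notch receptors, was higher in brain (114 ± 1.98 CPM, n = 2) than in liver (79.2 ± 5.01 CPM, n = 3), by 0.41 on the log2 scale (SE 0.08, edgeR adjusted p = 0.0102). Tcf4, a dimer partner of basic helix-loop-helix factors, was at 131 ± 8.66 CPM in brain and 63.9 ± 4.11 CPM in liver, higher by 0.93 (SE 0.11, edgeR adjusted p = 0.0015). Dtx1, which turns over Notch receptors, fell in brain by 0.81 against liver (SE 0.14, edgeR adjusted p = 0.00467). Among listed targets, Id2 fell in brain by 1.05 against liver (edgeR adjusted p = 0.00268) and by 0.84 against subcutaneous tumours (edgeR adjusted p = 0.00945). Bhlhe40, listed as a target and known also as a hypoxia-induced repressor, was at 11.5 ± 3.77 CPM in brain, 3.09 ± 0.431 CPM in liver and 19.7 ± 3.05 CPM in subcutaneous tumours, and in liver fell by 2.56 against subcutaneous tumours (SE 0.21, edgeR adjusted p = 7.071e-04). On the REST side, the cofactor Rcor2 fell in brain against subcutaneous tumours by 0.83 (SE 0.19, edgeR adjusted p = 0.0222) and Srrm4, a splicing factor that disables Rest, fell by 0.71 (SE 0.14, edgeR adjusted p = 0.0135). Of 22 listed REST targets, 3 rose and 1 fell in brain against liver: Gria2, a glutamate receptor subunit, was among the higher (0.81, SE 0.15, edgeR adjusted p = 0.0062), and Snap25, a vesicle fusion protein, was the lower (-0.43, SE 0.09, edgeR adjusted p = 0.0109).

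Delta ligands and receptors fell on different sides when host cells were set against tumour cells of the same library. Dll1, Dll3, Dll4 and Hes6 were lower in host cells, and Notch1, Notch2, Hes1 and Rest were higher, in each of the 4 libraries with at least 50 host cells (brain replicates 1 and 2, liver replicate 2 and subcutaneous replicate 1). These were all 8 calls among the 9 members tested, against 53.2% of all genes called (24.9% higher, 28.2% lower in host cells); Hey1 did not pass and Jag1 was too low to test. The ligand Jag1 was at 3.19, 0.74, 0 and 12.9 CPM in host cells, on 14, 1, 0 and 14 UMIs, and at 0.369, 0.439, 0.272 and 1.03 CPM in tumour cells, in the library order just given. The fit held the library as a block, with 3 residual degrees of freedom.

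In those libraries, in the same order, tumour cells held Dll3 at 69.7, 74.7, 28.9 and 32.7 CPM and host cells held it at 1.59, 1.48, 5.43 and 1.85 CPM. The host values lay far below, with a difference of -4.49 on the log2 scale (SE 0.51, edgeR adjusted p = 4.277e-04). Dll1 had 5, 3, 0 and 0 UMIs in host cells, and host cells differed from tumour cells by -3.37 (SE 0.63, edgeR adjusted p = 0.00404). Dll4 was at 7.28, 3.7, 0 and 9.23 CPM in host cells, a difference of -2.25 (SE 0.37, edgeR adjusted p = 0.00227). Hes6 was at 52.5, 61.4, 119 and 47.1 CPM in host cells, which is 9.7, 9.76, 18.5 and 7.41% of its tumour level. Other neuroendocrine or neuronal genes varied in this share: Insm1 was at 3.57, 4.26, 1.56 and 5.33%, the granule protein Chga at 5.11, 5.16, 31.6 and 6.5%, and Stmn2 at 10.9, 23.9, 84.2 and 67.5% of the tumour level. Host Hes6 differed from tumour Hes6 by -2.77 on the log2 scale (SE 0.29, edgeR adjusted p = 3.214e-04).

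Hes1 in host cells was at 106, 112, 40.7 and 107 CPM against 3.97, 1.99, 5.75 and 5.32 CPM in tumour cells. No host value reached down to a tumour value, and the difference was 4.97 on the log2 scale (SE 0.44, edgeR adjusted p = 1.856e-04). Notch1 was at 15.5, 12.6, 2.71 and 15.7 CPM in host cells (4.69, SE 0.59, edgeR adjusted p = 6.933e-04). Notch2 was at 26.8, 24.4, 13.6 and 40.6 CPM (3.64, SE 0.39, edgeR adjusted p = 3.512e-04). Rest was at 25.5, 27.4, 2.71 and 18.5 CPM (5.78, SE 0.5, edgeR adjusted p = 1.526e-04). Liver replicate 2 was the lowest in host cells for all 4 of these genes. In that library, 46 of 89 host cells fell in clusters that detected 6 or 7 of 10 tumour markers, against 5 of 886, 4 of 320 and 18 of 217 in the other 3. Without those clusters, an alternative chosen after seeing the data that left 43 host cells in liver replicate 2 and so dropped that library, 9 members were called, every one but Hey1. The 8 directions above were kept, and Jag1, tested there, was higher in host cells (3.26, SE 0.77, edgeR adjusted p = 0.0173). Jag1 also passed with no filter on low genes and without brain replicate 2 or liver replicate 2. Without brain replicate 1 it did not (2.88, SE 1.09, edgeR adjusted p = 0.0624).

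**Figure D3:**
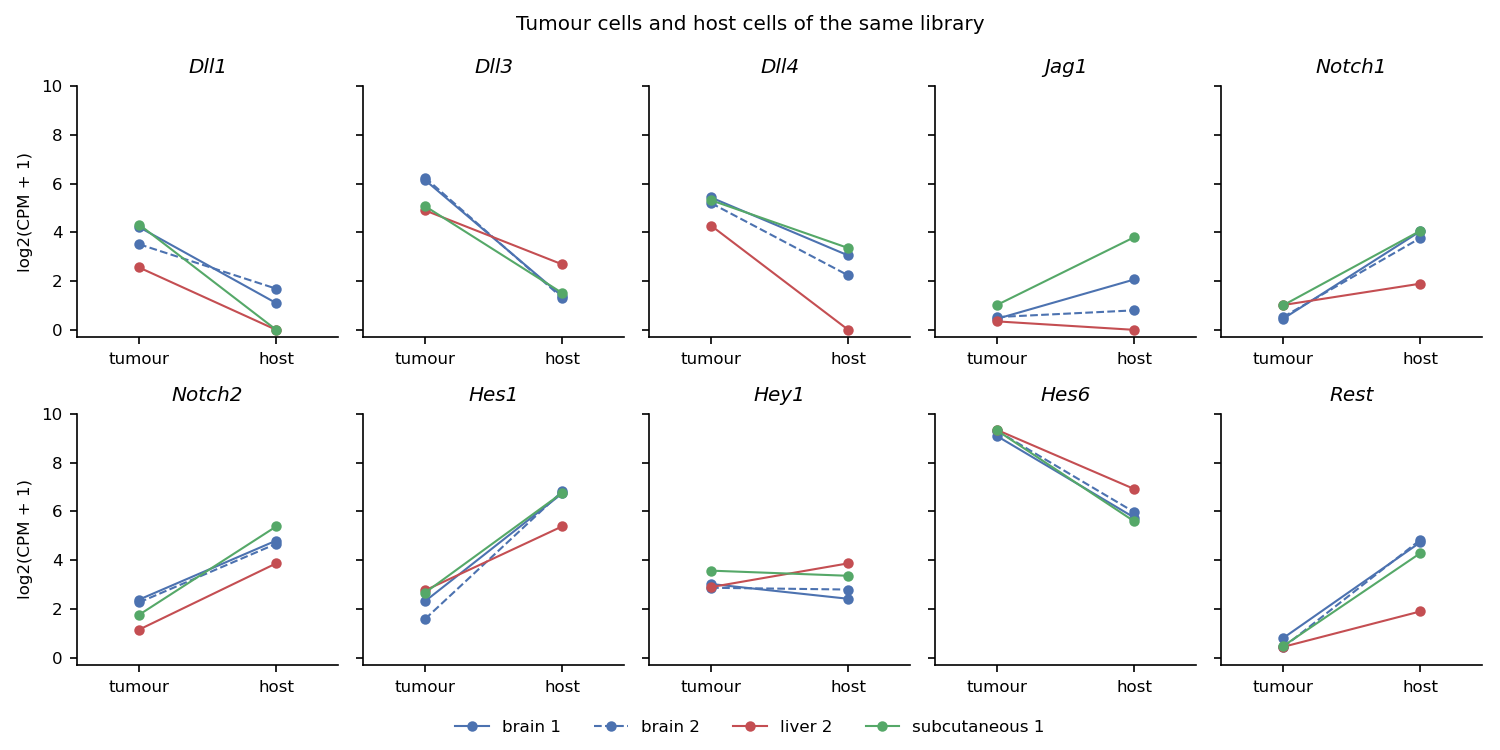
Level of each gene on the log2(CPM + 1) scale in tumour cells and host cells, joined by a line for each of the 4 libraries in the test (2 brain, 1 liver, 1 subcutaneous). Lines fall for Dll1, Dll3, Dll4 and Hes6, rise for Notch1, Notch2, Hes1 and Rest, and cross for Hey1.

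Hey1 was at 4.32, 5.92, 13.6 and 9.23 CPM in host cells and at 7.1, 6.28, 6.42 and 10.8 CPM in tumour cells, a difference of 0.36 (SE 0.41, edgeR adjusted p = 0.485) whose sign depended on the host cells taken. With microglia-like and macrophage-like cells alone, also chosen after seeing the data and also without liver replicate 2, it was -2.82 (edgeR adjusted p = 0.0123). Other pathway lists moved between host and tumour cells: of 10 listed genes of receptor cleavage 9 were higher in host cells, of 9 tested proneural factors 7 were lower, and of 22 REST targets 20 were lower, with medians of 1.47, -3.12 and -3.18 on the log2 scale against -0.17 over all genes. Insm1 fell by 4.23 (SE 0.25, edgeR adjusted p = 6.035e-05) and the synaptic vesicle protein Syt1 by 4.65 (SE 0.43, edgeR adjusted p = 1.949e-04) in host cells.

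Within host cells the members followed cell classes. Clusters were made without the members and the listed pathway genes and named from markers; levels below are descriptions of summed cells with exact Poisson 95% intervals, which cover counting error only. Of 1648 host cells, 514 were microglia-like, 364 macrophage-like, 81 fibroblast-like, 73 endothelial cell-like, 39 astrocyte-like, 23 oligodendrocyte-like, 16 pericyte or smooth muscle-like and 13 neutrophil-like, and 525 stayed unnamed. Endothelial cell-like cells held Notch1 at 108 CPM (74.1 to 151), Dll4 at 104 CPM (71.4 to 147), Jag1 at 45.7 CPM (24.96 to 76.6) and Hes1 at 541 CPM (462 to 630), with 1 Notch2 UMI in 73 cells. These cells came mostly from brain (50 and 16 of 73). Macrophage-like cells held Notch2 at 39.7 CPM (31.1 to 49.99), Notch1 at 11.0 CPM (6.74 to 17.0) and Hes1 at 185 CPM (165 to 206), with 0 UMIs of Dll1, Jag1 and Hey1 in 364 cells, for which a floor of 3 UMIs is 1.65 CPM and the upper end of the exact interval 2.03 CPM each.

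Hes1 in macrophage-like cells was at 227 CPM (197 to 260) in brain replicate 1, 172 CPM (133 to 219) in brain replicate 2, 180 CPM (92.9 to 314) in liver replicate 2 and 109 CPM (79.6 to 145) in subcutaneous replicate 1. Microglia-like cells, the resident macrophages of brain, were lower, at 25.2 CPM (17.9 to 34.4) and 63.4 CPM (39.7 to 95.9) in the 2 brain libraries, below macrophage-like cells of the same library. Their Notch2 was at 22.6 CPM (15.7 to 31.4) and 23.0 CPM (9.95 to 45.4). Astrocyte-like cells, whose Notch activity is well known, held Hes1 at 272 CPM (185 to 386), Hey1 at 96.4 CPM (48.1 to 172), Notch2 at 61.4 CPM (24.7 to 126), Notch1 at 52.6 CPM (19.3 to 115) and Dll1 at 26.3 CPM (5.42 to 76.8, 3 UMIs). Fibroblast-like cells held Hes1 at 172 CPM (128 to 226) and Notch2 at 33.7 CPM (16.1 to 61.9). Pericyte or smooth muscle-like cells held Jag1 at 54.7 CPM (20.1 to 119) and Hes1 at 200.5 CPM (126 to 304), and oligodendrocyte-like cells had 0 Hes1 UMIs in 23 cells, for which a floor of 3 UMIs is 26.0 CPM and the upper end of the exact interval 32.0 CPM.

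**Figure D4:**
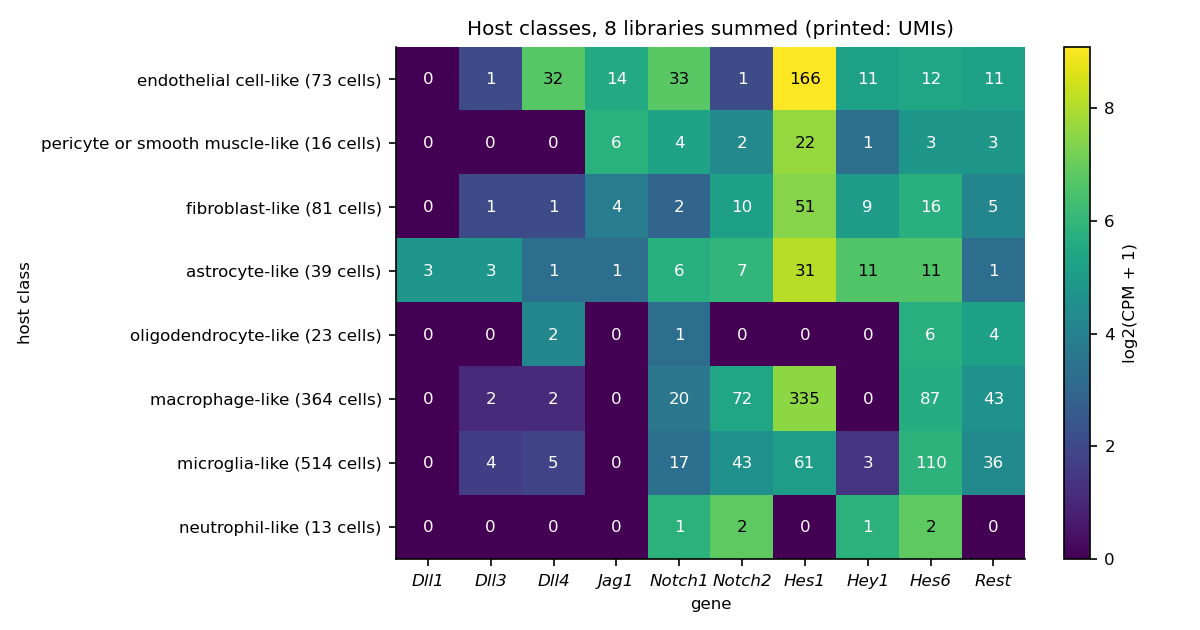
Level of each gene in 8 named host classes, 8 libraries summed, as colour on the log2(CPM + 1) scale with the UMI number printed in each cell of the plot. Dll4 and Notch1 stand out in endothelial cell-like cells (32 and 33 UMIs), Hes1 has UMIs in every class but oligodendrocyte-like and neutrophil-like cells, and Jag1 is at 0 UMIs in macrophage-like and microglia-like cells. For the 0 Hes1 UMIs in 13 neutrophil-like cells, the upper end of the exact interval is 208 CPM.

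Whether targets move together inside the tumour was read by splitting tumour cells, thinned to 3000 UMIs, by a Hes1 UMI. In cells with a Hes1 UMI, Hey1 was higher and Hes6 lower. Such cells were rare: 0.623 to 1.43% of tumour cells per library, 334 in all. At 1500 UMIs per cell, a Hes1 UMI was in 0.502, 0.198, 0.819 and 0.657% of tumour cells and in 9.96, 12.6, 6.58 and 10.7% of host cells of brain replicates 1 and 2, liver replicate 2 and subcutaneous replicate 1. The test used the 3 subcutaneous libraries, which had 57, 61 and 55 such cells. The fit had 2 residual degrees of freedom, and its p-values lean on a spread pooled over genes. Among the 9 other members 5 were tested and 2 passed, against 6.21% of all genes (2.28% higher, 3.93% lower).

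Hey1 in those 3 libraries was at 111, 43.7 and 18.2 CPM in cells with a Hes1 UMI and at 9.76, 10.6 and 8.85 CPM in cells without. Each library was higher with a Hes1 UMI, by 2.38 on the log2 scale over the fit (SE 0.41, edgeR adjusted p = 7.767e-07). The libraries that were not tested went the same way: 18.5 against 7.72 and 93.4 against 7.69 CPM in brain, and 70.2 against 5.06, 95.3 against 5.97 and 64.5 against 6.28 CPM in liver. Hey1 was thus higher in 8 of 8 libraries, from 66 UMIs in 334 cells. These were 1 and 7 UMIs in brain, 8, 14 and 6 in liver and 19, 8 and 3 under the skin. The direction in brain replicate 1 so rests on 1 UMI in 18 cells. Hes6 was at 275, 306 and 418 CPM with and 644, 596 and 640 CPM without a Hes1 UMI, a difference of -1.07 on the log2 scale (SE 0.12, edgeR adjusted p = 2.517e-16), and was lower in 7 of 8 libraries, brain replicate 1 being the exception. Without subcutaneous replicate 1, edgeR called 0 genes (1144 at an unadjusted p under 0.05), with Hey1 at 1.52 (adjusted p = 0.427) and Hes6 at -0.94 (adjusted p = 0.0846). With 5000 UMIs per cell both were called again (2.66 and -0.75). DESeq2 gave Hey1 no adjusted p and Hes6 -1.01 (adjusted p = 9.672e-08).

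Cells with a Hes1 UMI also carried more host marker UMIs in 7 of 8 libraries. Means per cell were 1.56 against 0.4, 0.459 against 0.201 and 0.4 against 0.173 in the 3 subcutaneous libraries. The liver libraries had 1.87 against 0.116, 1.96 against 0.188 and 0.968 against 0.107, and the brain libraries 1.83 against 1.90 and 1.36 against 0.539. The part of host RNA in the result was not tested. By host class, Hey1 had 0 UMIs in macrophage-like cells and 1 UMI in neutrophil-like cells. It was at 35.9 CPM in endothelial cell-like, 30.3 CPM in fibroblast-like and 96.4 CPM in astrocyte-like cells, the last from brain only. Dll3 and Dll4 did not pass, at -1.09 (SE 0.39, edgeR adjusted p = 0.077) and -0.93 (SE 0.42, edgeR adjusted p = 0.223). Dll3 was lower with a Hes1 UMI in 7 of 8 libraries, on 24 UMIs.

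**Figure D5:**
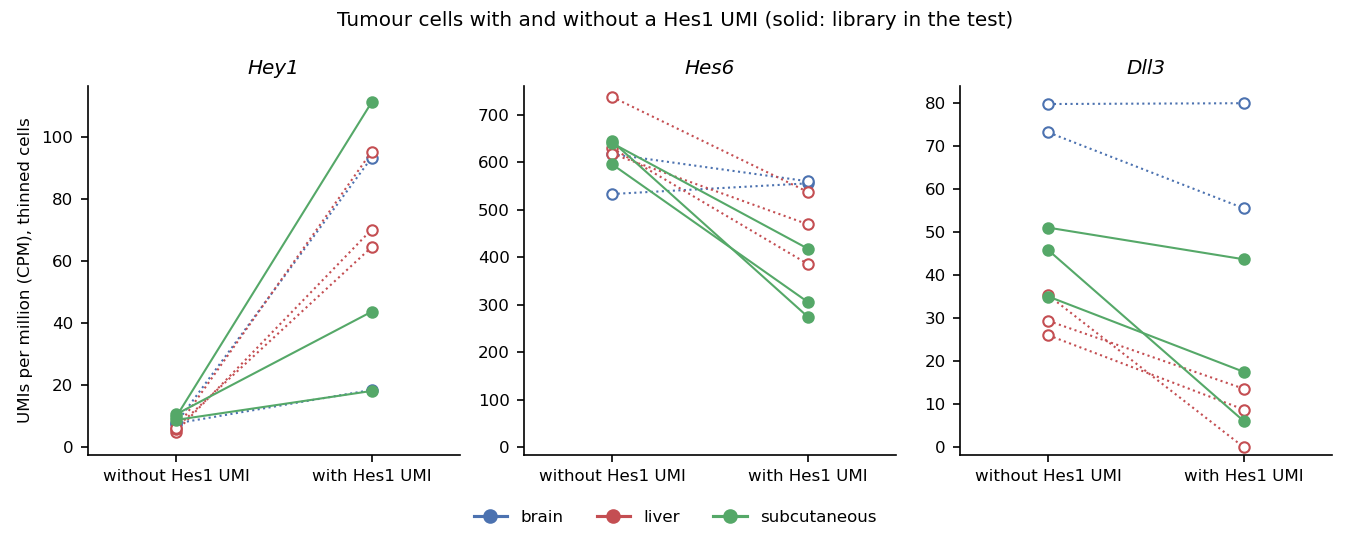
Hey1, Hes6 and Dll3 in CPM (y axis) in tumour cells without and with a Hes1 UMI after thinning to 3000 UMIs, joined by library; solid lines are the 3 subcutaneous libraries in the test and dotted lines the 5 others. Hey1 rises in 8 of 8 libraries (in brain replicate 1 on 1 UMI), Hes6 falls in 7 of 8 and Dll3 falls in 7 of 8.

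Of 89 tested pathway genes, 6 rose and 5 fell with a Hes1 UMI, where 2.28% of all genes rose and 3.93% fell. Id2 (1.02, SE 0.10, edgeR adjusted p = 1.629e-21) and Bhlhe40 (2.35, SE 0.26, edgeR adjusted p = 3.039e-16), both on the target list, were higher. Bhlhe40 is also hypoxia-induced, and whether Notch moved either gene was not tested. Insm1 (-0.76, SE 0.18, edgeR adjusted p = 0.00145), listed with the proneural factors, was lower, with the neuronal tubulin Tubb3 (-1.10, SE 0.13, edgeR adjusted p = 3.678e-15). Of 21 tested REST targets, 2 rose and 3 fell: Tubb3 is one of the lower, and Vgf (1.24, edgeR adjusted p = 6.795e-04) and Syt4 (1.10, edgeR adjusted p = 0.0231) were higher. Grin1 had 0 UMIs in the Hes1 cells of the 3 libraries and 163, 217 and 204 in the others, and no fold is given. Over all genes, those with the smallest adjusted p were Txnip (4.07, SE 0.28), a brake on glucose uptake, Cdkn1a (1.61, SE 0.13), a cell cycle inhibitor, the stress genes Ddit4 (1.42, SE 0.13) and Ankrd37 (1.62, SE 0.16), and Id2 on the higher side. On the lower side were Tmsb4x (-0.75, SE 0.06), Mycl (-0.70, SE 0.06), Stmn1 (-0.68, SE 0.06), Ppia (-0.63, SE 0.06) and mt-Atp6 (-0.57, SE 0.06). Mycl is one of the transcripts in the tumour gate.

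A second split, on the ligand Dll1, compared tumour cells with and without a Dll1 UMI. Those with one numbered 1112 at 3000 UMIs, in 8 libraries, and differed little in the other members. Of the members 5 were tested and 1 passed (background 3.76%, with 1.14% higher and 2.63% lower): Hes6, at 0.15 (SE 0.05, edgeR adjusted p = 0.0417), higher in 6 of 8 libraries. Of 18 alternatives for Hes6, 9 lost the call, and 1 more, liver alone, turned in sign and did not pass either. Dll3 gave 0.09 (SE 0.12, edgeR adjusted p = 0.843) and Dll4 0.29 (SE 0.13, edgeR adjusted p = 0.27); at 5000 UMIs Dll4 passed (0.39, edgeR adjusted p = 6.538e-04). Hes1 was -0.15 (SE 0.43, edgeR adjusted p = 0.937). Of the pathway genes, the neural factor Nkx2-2 rose by 1.03 (SE 0.20, edgeR adjusted p = 3.308e-05), the atypical ligand Dner by 0.31 (SE 0.07, edgeR adjusted p = 0.00262) and the receptor-modifying Lfng by 0.33 (SE 0.10, edgeR adjusted p = 0.0401), and the granule protein Chga fell by 0.20 (SE 0.05, edgeR adjusted p = 0.00633).

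Outside the pathway, Gadd45g (0.56, SE 0.07), Tfap2a (0.89, SE 0.12), Wfdc2 (0.40, SE 0.06), Mycn (0.94, SE 0.13) and Tob1 (0.46, SE 0.07) led the higher genes with a Dll1 UMI; Gadd45g and Tob1 are growth inhibitors. The lower genes with the smallest adjusted p were Ube2c (-0.72, SE 0.07), Pclaf (-0.66, SE 0.07), Top2a (-0.81, SE 0.09), Cks2 (-0.60, SE 0.07) and Birc5 (-0.73, SE 0.09). The mean UMIs of 20 G2/M genes per cell were lower with a Dll1 UMI in 8 of 8 libraries (2.59 to 4.88 against 4.28 to 5.72), and those of 18 S-phase genes were higher in 4 of 8 (6.12 to 9.13 against 5.85 to 9.81).

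Pairs of members in the same tumour cell are given as a description without a test, at 3000 UMIs; pairs with Hes1 restate the split above in the same cells. Hes1 and Hey1 were found together in 42 cells where 7.94 would follow from their single shares within libraries, above it in 8 of 8. Notch1 met Hes1 in 8 cells (0.532 expected) and Hey1 in 11 (1.1 expected), above it in 4 and 5 of 8 libraries. Dll3 and Dll4 met in 467 cells (370 expected, above in 8 of 8 libraries), while Dll3 and Hes1 met in 22 (38.4 expected, below in 8 of 8). Hes6 was found with Hes1 in 200 cells (262 expected) and with Hey1 in 564 (614 expected), below in 8 of 8 libraries for both. Cells with more host marker UMIs are part of these numbers too, and their part was not tested.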

How the data were processed

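Single-cell 3' RNA libraries of 8 allografts were read as deposited. The authors deposited whole-number UMI counts per gene and cell, and per the file headers these are in the format of Cell Ranger 3.0.0; per the submitters' processing notes Cell Ranger and STAR were used with mm10. No barcode in the tables had under 501 UMIs. Members and gene lists were chosen with earlier results of these data known. A cell entered if it had 500 genes or more and a mitochondrial share of 10% or less, and no doublet caller was run. Tumour counts were summed per library and fitted in R 4.3.3 with edgeR 4.0.16 (TMM, filterByExpr, robust quasi-likelihood F tests, Benjamini-Hochberg over all genes, threshold 0.05), with site means over 8 libraries (5 residual degrees of freedom). Labels do not say that replicates are separate mice, so p-values measure the spread between these libraries, which may be technical. The SE is the log2 fold change over the root of F. No 2 libraries were duplicates (chi-square per gene 6.07 to 87.6 between libraries of a site).

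Host against tumour fits held the library as a block (4 libraries). Splits by a Hes1 or Dll1 UMI used cells thinned to 3000 UMIs (970 tumour cells were below that and left out) and libraries with at least 50 cells of each kind, with the library as a block. They had 2 (Hes1) and 7 (Dll1) residual degrees of freedom, and their p-values lean on a spread pooled over genes. Depth was 21689091 to 62047017 tumour UMIs per library, so a gene under 1 CPM rests on few UMIs. Host cells were clustered in scanpy 1.11.5 (Leiden, igraph 0.11.9). Named genes are the members; per comparison, up to 8 listed pathway genes past the threshold with the smallest adjusted p and at least 10 CPM; for each split, the 5 in each direction with the smallest adjusted p; and the 2 genes most like each member of at least 10 CPM by Pearson correlation of log2(CPM + 1). Some genes that this rule names are not reported here. The fits were tested on simulated data. The alternatives were DESeq2 1.42.0, RLE or no scaling factors, other filters and gates, thinning, equal cell numbers, cells with few G2/M or no host marker UMIs, the replicate block, fits of 2 sites, and leaving out each library.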

Additional observations from a re-analysis of the deposited data

How the results depend on the processing

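Dll3 and Dll4 in brain against liver passed in each of 21 alternatives. Counts of members called that moved were these, with the cause not tested. Brain against liver fell from 4 to 2 without brain replicate 1, and leaving out each library gave 2 to 5. Brain against subcutaneous fell from 3 to 1 at 3000 UMIs per cell and to 0 without host marker UMIs (3 at an unadjusted p under 0.05 in edgeR) or with the 2 sites alone, which uses fewer libraries (4 at an unadjusted p under 0.05), and DESeq2 called 3; leaving out each library gave 0 to 3. Liver against subcutaneous went from 2 to between 0 and 4 on leaving out each library, host against tumour from 8 to between 8 and 9, the Hes1 split from 2 to between 0 and 2, and the Dll1 split from 1 to between 0 and 1. DESeq2 called 1 member in the Hes1 split. The Dll1 split called 0 with DESeq2 (1 at an unadjusted p under 0.05), with no filter on low genes (0), without host marker UMIs (2), in brain alone (1) and in liver alone (0), all edgeR beside the first, and 2 at 5000 UMIs and in subcutaneous libraries alone. Over all genes, brain against subcutaneous called 2099 and, without brain replicate 1, 383; liver against subcutaneous called 394 and, without subcutaneous replicate 1, 1024.

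Correlations between libraries of different sites ran from -0.127 to 0.25 for the same replicate number and from -0.302 to 0.303 for other numbers. Levels were centred within each site, so these values are not independent and do not settle whether the numbers pair libraries. With the replicate block, the members called were 4 in brain against liver, 1 in brain against subcutaneous and 2 in liver against subcutaneous. Signs turned for the following, none past the threshold in the reported fit but Hes6 in the Dll1 split. Where leaving out each library in turn turned a sign, the range is given. In brain against liver, Jag1 ran from -0.0684 (without liver replicate 3) to 0.895, Hey1 from -0.0463 (without brain replicate 1) to 0.111 and Rest from -0.0883 (without brain replicate 1) to 1.02. Hey1 was also -0.00497 with at most 1 G2/M UMI, -0.18 without host marker UMIs and -0.0464 with the replicate block, and Rest was -0.44 without host marker UMIs. In brain against subcutaneous, Dll1 ran from -0.517 to 0.218 (without brain replicate 2), Dll4 from -0.0172 (without brain replicate 1) to 0.198, Hes6 from -0.22 to 0.0155 (without brain replicate 1) and Notch1 from -0.436 (without subcutaneous replicate 3) to 1.95; Rest was -0.34 without host marker UMIs. In liver against subcutaneous, Hes1 ran from -0.172 (without liver replicate 2) to 0.395, and was -0.0138 with library sizes alone and -0.32 without host marker UMIs. Host Hey1 ran from -0.0157 (without liver replicate 2) to 0.648, and was -0.0102 without the host clusters with tumour markers and -2.82 in microglia-like and macrophage-like cells, both chosen after seeing the data. In the Dll1 split, Hey1 ran from -0.578 to 0.0212 (without subcutaneous replicate 2) and was 0.85 in liver alone. Dll3 was -0.0507 at 2000 UMIs, -0.15 without host marker UMIs and -0.0388 in liver alone, Dll4 was -0.33 in brain alone and -0.0743 in liver alone, and Hes6 was -0.13 in liver alone. In the Hes1 split, cells with few G2/M UMIs or no host marker UMIs, 2000 UMIs and single sites other than subcutaneous gave no value, having fewer than 2 libraries with 50 such cells. At this depth Jag1, Notch1 and Rest, at 3 to 55 UMIs per library, cannot show modest differences.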

Other observations

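The genes whose tumour level ran most like a member's were found over the 8 libraries among 7942 genes of at least 10 CPM, by Pearson's r of log2(CPM + 1); these are descriptions with no test, and libraries of 1 site share it. For Dll1 they were Ctdspl2 (r = 0.984) and Gpr19 (r = 0.978). For Dll3 they were Kpna3 (r = 0.993) and Fignl1 (r = 0.974). For Dll4 they were Bdh1 (r = 0.988) and Stat3 (r = 0.985), and for Hes6 they were Lancl1 (r = 0.939) and Phb2 (r = 0.935).

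Jag1 was found with Hes6 in 41 tumour cells at 3000 UMIs (47.7 expected, above in 2 of 8 libraries) and with Dll4 in 11 (5.53 expected, above in 5 of 8). Jag1 and Hes1 were found together in 7 cells (0.646 expected), Jag1 and Hey1 in 6 (1.49 expected) and Jag1 and Notch2 in 4 (0.402 expected). The last 3 pairs were each above in 3 of 8 libraries and below in 5. Cells with more host marker UMIs are part of these numbers, and their part was not tested. Dll3 and Notch2, both higher in brain, met in 48 cells (27.2 expected, above in 7 of 8 libraries). Dll1 and Hes1 met in 13 cells, near the 11.5 expected.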
